A study of Gallus gallus with 60 samples.

Results

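Mitochondrial ribosomal proteins were examined in the cerebrum of laying hens at 96 probe sets of 67 genes, out of 38535 probe sets on the array. A member is every probe set whose single gene symbol in the array annotation starts with MRPL or MRPS followed by a digit, a rule that uses the symbol and no value of a hen. Of these genes, 45 encode proteins of the large subunit (65 probe sets) and 21 proteins of the small subunit (30 probe sets). MRPS18A and MRPS30 carry small-subunit names, but their proteins lie in the large subunit and were counted there. MRPS36, with 1 probe set, is in mammals a component of the 2-oxoglutarate dehydrogenase complex and was counted in neither subunit. One further probe set, annotated to both MIF4GD and MRPS7, was left out because it has several symbols.

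RNA from the posterior cerebrum without meninges came from 60 hens aged 65 to 67 weeks, with 1 Affymetrix chicken array per hen. Of these hens, 28 were Lohmann Selected Leghorn (LSL), a white-egg layer line, and 32 were Lohmann Brown (LB), a brown-egg layer line. All were kept in a small group housing system in compartments of 36 hens (13 LSL, 15 LB) or 54 hens (15 LSL, 17 LB). Samples were taken from the right side of the cerebrum except in 6 hens (2 LSL and 4 LB), whose left side was used. In the study's methods, hens were selected partly by behaviour, plumage and skin lesions, and each compartment gave several hens. Compartment and selection class of a hen are not given in the labels used here, so hens were treated as independent samples and the standard errors (SE) take no account of shared compartments.

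The deposited values are log2 values in which each probe set is centred on its median, once over hens 1 to 30 and once over hens 31 to 60. These 2 sets of arrays (the first with 15 hens of each line, the second with 13 LSL and 17 LB layers) therefore have separate zero points. The set was a block in every main fit. A value is a distance from the median hen of its set and not a level of expression, so members cannot be ranked by abundance and the tissue cannot be checked by the levels of its markers. The number of arrays limits the precision. Differences are given as LSL minus LB, or as 54 minus 36 hens per compartment, on the log2 scale. A probe set was called where limma gave a p-value under 0.05 after Benjamini-Hochberg adjustment across the 38535 probe sets.

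Mitochondrial ribosomes translate the few proteins still encoded by mitochondrial DNA, which are subunits of the respiratory chain complexes and of ATP synthase. Their RNA comes from mitochondrial DNA, but all their proteins are encoded in the nucleus, made in the cytosol and imported. Some of these proteins have counterparts in every ribosome, some are shared with bacteria only, and many are found only in mitochondria. Neurons depend heavily on oxidative phosphorylation, and inherited defects of several of these proteins in humans cause combined respiratory chain deficiencies.

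Between the layer lines, 20 of the 96 probe sets were called (20.8%), 9 higher and 11 lower in LSL, beside 18.3% of all probe sets on the array (8.13% higher, 10.2% lower). The median difference was -0.01 over the members and -0.01 over all probe sets, 39 of the 96 members were positive beside 43.9% of all probe sets, and the members ranged from -0.63 to 1.29. Called members differed by a median size of 0.20. The largest rises in LSL layers were at 1 probe set each of MRPS6, MRPL50, MRPL53 and MRPS33, and the largest falls at 1 probe set each of MRPL3, MRPS16, MRPL55 and MRPL51. Because whole tissue was used, fewer cells of a type and less RNA per cell cannot be told apart. Probe sets of the same gene did not always differ alike, so each value stands for its probe set and not for the gene. In the large subunit 6 probe sets were higher, 6 lower and 53 were not called, and in the small subunit 3, 5 and 22. Of proteins with counterparts in every ribosome, 3 probe sets were higher and 5 lower of 28, of those shared with bacteria 1 and 3 of 31, and of those found only in mitochondria 5 and 3 of 36.

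Counted by gene, 17 of the 67 genes had a called probe set (25.4%), beside 32.4% of the 13009 genes on the array. These shares are not matched for probe sets per gene, and a gene with more probe sets has more chances of a call. Several probe sets were present for 19 of the member genes and for 7334 of the genes on the array. Among genes with several, the shares called were 36.8% and 40.2%. Of these 17 genes, 10 have 1 probe set and 7 have several. The share of higher and lower calls moved with the treatment of the arrays and with LB hens 7, 8 and 16. Without these 3 hens, 27 members were called, 20 higher and 7 lower, beside 18.4% of all probe sets. The count was 26 (16 higher, 10 lower, beside 19.2%) with the difference between the actin 5' and 3' probe sets of each array as a covariate and 27 (16 and 11, beside 20.8%) with array weights. It was 24 (14 and 10, beside 19.2%) after quantile normalization between arrays and 21 (11 and 10, beside 17.8%) after subtraction of each array's median. Within hens 1 to 30 alone, 11 members were called (5 higher, 6 lower), beside 7.77% of all probe sets, and within hens 31 to 60 alone 23 (17 and 6), beside 13.2%. The difference of the line effect between the sets of arrays was tested as an interaction and no member passed, while 11 members reached an unadjusted p under 0.05, beside 6.89% of all probe sets.

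**Figure D1:**
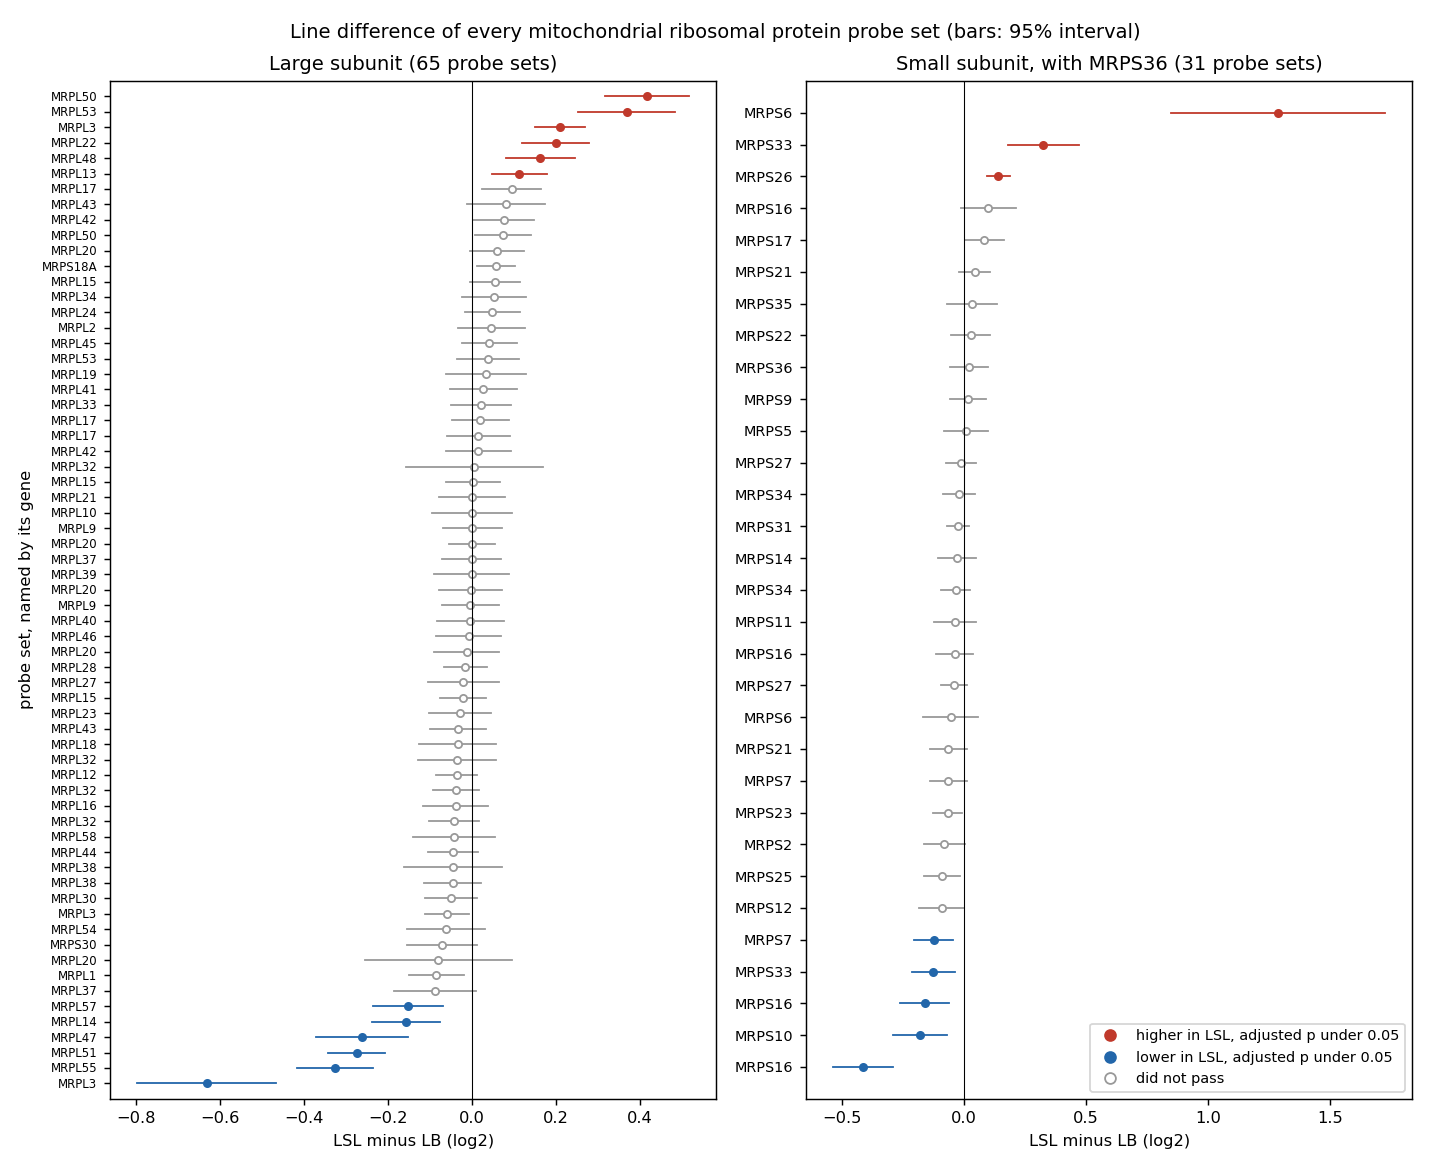
Difference between the layer lines (x axis, LSL minus LB, log2) of each of the 96 probe sets, named by gene, with its 95% interval. Filled red points (9) were higher and filled blue points (11) lower in LSL layers at an adjusted p under 0.05, and open grey points were not called. The x axes of the panels differ in range, and most members lie near 0.

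LB hens 7, 8 and 16, all from compartments of 54 hens and all in the first set of arrays, had the highest medians over the members and the lowest actin differences of the 60 hens, with hen 7 close to the next hen. The median over the 96 members was 0.17 in hen 7, 0.28 in hen 8 and 0.23 in hen 16, and between -0.13 and 0.16 in the other 57 hens. The actin 5' minus 3' difference, a measure of RNA integrity on this array, was -1.69, -2.88 and -2.89 in these hens and between -1.33 and 0.24 in the others. The median over all probe sets of each array stayed between -0.02 and 0.06 in all 60 hens. It was highest in hen 8 (0.06), followed by hen 7 (0.03), while hen 16 had 0.01. The part of RNA integrity in the values of the members was not tested beyond the covariate above. Since these LB hens had the highest medians over the members, leaving them out by itself raises the median of the members in LSL minus LB. Where leaving out these hens changed the call of a probe set described here, it is stated beside the result.

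MRPS6, counterpart of the bacterial small-subunit protein bS6, had the largest difference of all members at probe set GgaAffx.12895.1.S1_at. In hens 1 to 30, LSL values ran from -0.48 over a median of 0.30 to 0.62, and LB values from -2.96 over -0.69 to 0.12. In hens 31 to 60, LSL values ran from -0.30 over 0.31 to 0.70, and LB values from -3.49 over -0.34 to 0.36. LSL layers lay close together while LB layers spread widely downwards, and the lines overlapped in both sets. In the first set 8 of 15 LB hens lay below every LSL hen, and in the second set 9 of 17. The difference was 1.29 (SE 0.22), a 2.44-fold higher value in LSL (limma, adjusted p = 5.11e-06), with 1.33 in the first and 1.24 in the second set. Without hens 7, 8 and 16, at -0.40, -2.61 and -2.58, it was 1.197 (SE 0.22, adjusted p = 1.68e-05).

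The wide spread of MRPS6 gave this probe set the largest residual SD of all members, 0.83, where the median member had 0.145 and the median probe set of the array 0.147. In compartments of 54 hens the line difference of MRPS6 was 1.67 (limma, adjusted p = 1.23e-05) and in compartments of 36 hens 0.86, which was not called (adjusted p = 0.0630). Without hens 7, 8 and 16 these were 1.59 (adjusted p = 6.70e-05) and 0.86, then called (adjusted p = 0.0481). With these hens included, the difference between 1.67 and 0.86 was not called (limma, adjusted p = 0.394, unadjusted p = 0.0560). The other probe set of MRPS6, Gga.5347.1.S1_s_at, differed by -0.05 (SE 0.06, adjusted p = 0.598), with -0.19 in the first and 0.09 in the second set of arrays.

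MRPL3 encodes the counterpart of uL3, a protein that reaches towards the peptidyl transferase centre of the large subunit, and its probe sets differed in opposite directions. At Gga.17920.1.S1_at, LSL values in hens 1 to 30 ran from -0.86 over -0.57 to 0.33 and LB values from -0.84 over 0.21 to 0.53. They ran in hens 31 to 60 from -0.91 over -0.58 to 0.24 in LSL and from -0.10 over 0.15 to 0.77 in LB. In the first set 1 of 15 LSL hens lay below every LB hen, and 14 lay below the LB median. In the second set 11 of 13 lay below every LB hen, and 12 lay below the LB median. The difference was -0.63 (SE 0.08), 1.55-fold lower in LSL (limma, adjusted p = 9.98e-09).

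At GgaAffx.11791.1.S1_s_at of the same gene, LSL values ran from -0.12 over 0.12 to 0.37 and from -0.03 over 0.14 to 0.24 in the first and second set, and LB values from -0.29 over -0.06 to 0.10 and from -0.35 over -0.12 to 0.12. All but 2 LSL hens, both in the first set, lay above the LB median of their set. MRPL3 was thus higher in LSL layers by 0.21 (SE 0.03, adjusted p = 1.35e-07) at this probe set. The remaining one, Gga.17920.1.A1_at, differed by -0.06 (SE 0.03, adjusted p = 0.110).

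The largest other rises of large-subunit members in LSL layers were those of MRPL50, MRPL53 and MRPL22. MRPL50, a protein found only in mitochondrial ribosomes, had LSL values from -0.24 over 0.14 to 0.49 and LB values from -0.48 over -0.30 to 0.47 in hens 1 to 30 at GgaAffx.11916.1.S1_s_at. In hens 31 to 60, LSL values ran from 0.23 over 0.43 to 0.58 and LB values from -0.25 over -0.08 to 0.07. Here all LSL hens lay above all LB hens, the only case among the 96 members (1.04%), beside 0.548% of all probe sets. In the first set the lines overlapped for every member, while 0.205% of all probe sets did not overlap. The difference was 0.42 (SE 0.05, 1.33-fold, limma adjusted p = 1.04e-09), and 0.48 (SE 0.04) without hens 7, 8 and 16. The second probe set of MRPL50 differed by 0.07 (SE 0.03, adjusted p = 0.129) and was called without these hens (0.10, adjusted p = 0.00960). It was also called in hens 31 to 60 alone (0.12, limma adjusted p = 0.0200) but not in hens 1 to 30 alone (0.02, adjusted p = 0.872).

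MRPL53, also found only in mitochondria, had LSL values from -0.16 over 0.20 to 0.49 and LB values from -0.62 over -0.27 to 0.28 in hens 1 to 30 at Gga.11961.1.S1_at. Values in hens 31 to 60 were -0.12 over 0.13 to 0.51 in LSL and -0.57 over -0.15 to 0.39 in LB. Every LSL hen lay above the LB median of its set, although the ranges overlapped. The difference was 0.37 (SE 0.06, 1.29-fold, adjusted p = 9.41e-07), while the other probe set of MRPL53 differed by 0.04 (SE 0.04, adjusted p = 0.561), with -0.05 in the first and 0.12 in the second set. It was called as higher in LSL in the second set alone (adjusted p = 0.0149) and without hens 7, 8 and 16 (0.08, adjusted p = 0.0377).

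MRPL22, counterpart of uL22 which lines the exit tunnel of the nascent chain, had LSL values from -0.41 over 0.10 to 0.43 and LB values from -0.30 over -0.04 to 0.22 in hens 1 to 30. Those of hens 31 to 60 ran from -0.05 over 0.11 to 0.47 and from -0.30 over -0.10 to 0.13. Most LSL hens lay above the LB median, with broad overlap. The difference was 0.20 (SE 0.04, adjusted p = 0.000114), but in hens 1 to 30 alone it was not called (0.16, adjusted p = 0.143).

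Among large-subunit members that fell in LSL layers besides MRPL3, MRPL55 was clearest in the single hens. MRPL55, whose counterpart bL31 joins the subunits in bacteria, had LSL values from -0.30 over -0.13 to 0.21 and LB values from -0.09 over 0.32 to 0.70 in hens 1 to 30. In hens 31 to 60 they ran from -0.26 over -0.18 to -0.02 in LSL and from -0.15 over 0.07 to 0.36 in LB. In each set 10 LSL hens lay below every LB hen, and all LSL hens lay below the LB median. The difference was -0.33 (SE 0.05), 1.25-fold lower in LSL (adjusted p = 5.02e-08).

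MRPL51, found only in mitochondria, had LSL values from -0.30 over -0.15 to 0.06 and LB values from -0.31 over 0.14 to 0.29 in hens 1 to 30, and from -0.38 over -0.13 to 0.13 and from -0.09 over 0.11 to 0.34 in hens 31 to 60. One LB hen in the first set lay as low as the lowest LSL hens. The difference was -0.27 (SE 0.03), 1.21-fold lower in LSL (adjusted p = 2.72e-09). The MRPL51 probe set, like the leading one of MRPL50 and the one of MRPL3 that was higher in LSL, carries the suffix by which the manufacturer marks probes shared with transcripts of other genes, so a share of such transcripts cannot be told apart. The same suffix and limit apply to Gga.5347.1.S1_s_at of MRPS6 and Gga.3282.1.S1_s_at of MRPS16.

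MRPL47, counterpart of uL29 at the tunnel exit, had LSL values from -0.56 over -0.13 to 0.29 and LB values from -0.10 over 0.17 to 0.62 in hens 1 to 30. The values of hens 31 to 60 ran from -0.69 over -0.05 to 0.11 and from -0.19 over 0.01 to 0.23, with most LSL hens inside the LB range. The difference was -0.26 (SE 0.05, adjusted p = 0.000188), with -0.38 in the first set and -0.14 in the second, where it was not called (adjusted p = 0.158).

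In the small subunit, MRPS16 was called as lower in LSL layers at 2 of its 4 probe sets. Its bacterial counterpart bS16 is needed for assembly of the small subunit, and in humans loss of MRPS16 causes a respiratory chain deficiency. At Gga.3282.5.S1_at, LSL values ran from -0.58 over -0.28 to 0.19 in hens 1 to 30 and from -0.76 over -0.40 to 0.12 in hens 31 to 60. LB values ran from -0.13 over 0.10 to 0.71 and from -0.23 over 0.09 to 0.47. The LSL hens that reached into the LB range all came from compartments of 54 hens, as described with group size. The difference was -0.41 (SE 0.06), 1.33-fold lower in LSL (adjusted p = 3.11e-07), with -0.40 and -0.42 in the first and second set.

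The other probe sets of MRPS16 did not all follow. Gga.3282.2.S1_a_at fell by 0.16 in LSL (SE 0.05, limma adjusted p = 0.0180), but this call was lost without hens 7, 8 and 16 (-0.11, adjusted p = 0.0725) and within either set of arrays. Gga.3282.3.S1_at differed by -0.04 (SE 0.04, adjusted p = 0.583). Gga.3282.1.S1_s_at differed by 0.10 (SE 0.06, adjusted p = 0.242) and was called as higher without the 3 hens (0.17, adjusted p = 0.00625), in the opposite direction to the first.

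MRPS33, found only in mitochondria, was called in both directions. At Gga.1347.1.S1_at, LSL values ran from -0.49 over 0.06 to 0.66 and LB values from -1.21 over -0.07 to 0.29 in hens 1 to 30, and from -0.16 over 0.19 to 0.52 and from -0.43 over -0.08 to 0.23 in hens 31 to 60. The lowest LB values were those of hens 7, 8 and 16, at -0.75, -1.21 and -1.02. The difference was 0.33 (SE 0.07, limma adjusted p = 0.000473) with these hens and 0.23 (SE 0.06, adjusted p = 0.00111) without them, while hens 1 to 30 alone gave no call (0.37, adjusted p = 0.0756). At Gga.1347.2.A1_a_at it was -0.12 (SE 0.04, adjusted p = 0.0370) with them and -0.09 (adjusted p = 0.100) without.

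MRPS10, counterpart of uS10 in the head of the small subunit, had LSL values from -0.38 over -0.13 to 0.25 and LB values from -0.20 over 0.11 to 0.90 in hens 1 to 30. The second set ran from -0.27 over -0.05 to 0.13 and from -0.19 over 0.02 to 0.31. Hens 7, 8 and 16 had 0.48, 0.70 and 0.90. The difference of -0.18 (SE 0.05, limma adjusted p = 0.0136) was no longer called without them (-0.11, adjusted p = 0.0586), nor in hens 31 to 60 alone (-0.06, adjusted p = 0.480).

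The remaining called members were smaller in size, between 0.11 and 0.16. MRPS26, MRPL48 and MRPL13 were higher in LSL layers by 0.14, 0.16 and 0.11. MRPL14, MRPL57 and 1 of 2 probe sets of MRPS7 fell by 0.16, 0.15 and 0.12, and MRPS7 was not called without hens 7, 8 and 16. These 6 were not among the 12 largest and are named here to complete the 20.

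Probe sets of the same gene were compared with each other. Of the 19 genes with several probe sets (48 in all), 7 had a called one (36.8%), beside 40.2% of such genes on the array. In 0 of these 7 were all probe sets called in 1 direction, beside 8.95% on the array. MRPS16 had a pair of probe sets called as lower. MRPL3 and MRPS33 were called in both directions, as were 206 of the 7334 genes with several probe sets on the array. In 10 of the 19 genes all probe sets had the same sign (52.6%, beside 44.8% on the array). The correlation of residuals across the 60 hens, after line, group size and set of arrays, was taken over the 44 pairs of probe sets of the same gene. It had a mean of 0.14 and a median of 0.10, and 8 pairs were above 0.5. Pairs of members from different genes had a mean of 0.18. These pairs share the arrays and their processing, and no test was made.

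**Figure D2:**
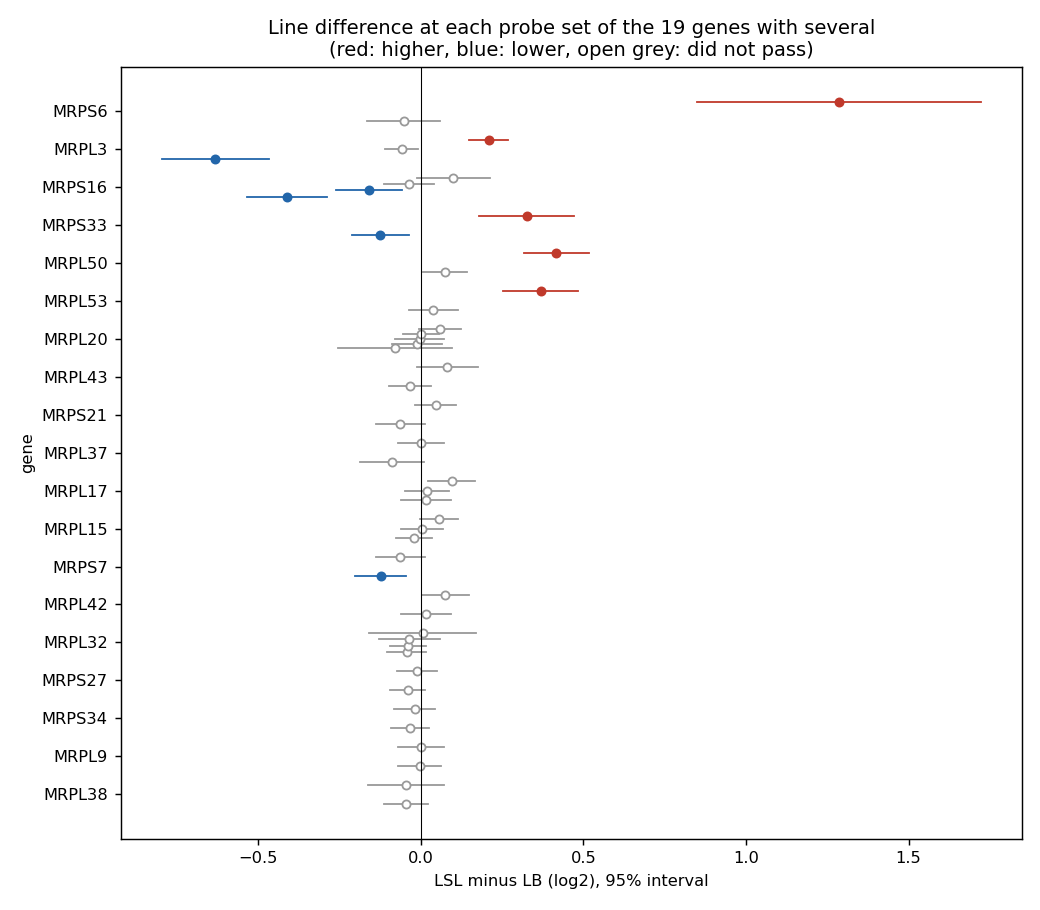
Line difference (x axis, LSL minus LB, log2, with 95% interval) at each probe set of the 19 genes with several probe sets, ordered by the distance between their probe sets. MRPS6, MRPL3, MRPS16 and MRPS33 have the widest distance, and 12 genes have no called probe set.

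Across hens the members varied together more than probe sets in general. The mean correlation of residuals over the 4560 pairs of members was 0.18, with 66.6% of pairs positive, and the mean over all pairs of probe sets on the array was 0.007. Without hens 7, 8 and 16 the means were 0.16 and 0.006. All pairs were measured on the same arrays, so this is a description of these 60 hens.

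Line differences were also compared within each group size. In compartments of 36 hens 11 members were called, 6 higher and 5 lower, beside 9.07% of all probe sets (3.86% higher, 5.21% lower). In compartments of 54 hens 18 were called, 7 higher and 11 lower, beside 15.5% (7.21% higher, 8.3% lower). LB hens 7, 8 and 16 all came from compartments of 54, and without them 19 members were called there, 14 higher and 5 lower, beside 4445 of all probe sets. The split in compartments of 54 was also 11 higher and 4 lower in hens 31 to 60 alone, beside 7.11% of all probe sets. It was 13 and 8 with array weights (beside 15.2%) and 11 and 6 with the actin covariate (beside 14%). After quantile normalization it was 11 and 7 (beside 14.2%), and in hens 1 to 30 alone 5 and 8 (beside 10.1%). An interaction of line and group size was called for 0 members and for 0% of all probe sets, with 9 members (9.38%) and 12.9% of all probe sets at an unadjusted p under 0.05.

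For group size itself, no member was called over both lines, beside 0.0104% of all probe sets, and the lowest adjusted p was 0.101, for MRPS16. At an unadjusted p under 0.05 stood 35 of the 96 members (36.5%), 34 of them higher in compartments of 54 hens, beside 10.3% of all probe sets (5.88% higher). The difference was positive at 77 of 96 members and at 47.2% of all probe sets, with medians of 0.04 and -0.00. The unpaired t-test of the methods called 0 members and 0% of all probe sets. Before adjustment it gave 32 members, beside 9.07% of all probe sets.

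The size of this shift moved with the set of arrays and with hens 7, 8 and 16. In hens 1 to 30, 45 members reached an unadjusted p under 0.05 (43 higher), beside 11% of all probe sets, 79 were positive and the median difference was 0.12. In hens 31 to 60 there were 5 (4 higher), beside 12%, 53 members were positive, beside 44.5% of all probe sets, and the median was 0.00. Without hens 7, 8 and 16, 17 members reached it, all higher, beside 10.1% of all probe sets, 72 were positive and the median was 0.03. With the actin covariate there were 19, beside 8.87%.

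Within LB layers, where 0 members and 0.00519% of all probe sets were called for group size, 31 members reached an unadjusted p under 0.05 (28 higher), beside 11.8% of all probe sets (6.24% higher), and 5 without the 3 hens, beside 5.78%. Within LSL layers, which do not include these hens, it was 12, all higher, beside 12.1% of all probe sets and 4.7% higher. In LSL layers 77 members were positive, beside 46% of all probe sets, and the median of the members was 0.05.

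**Figure D3:**
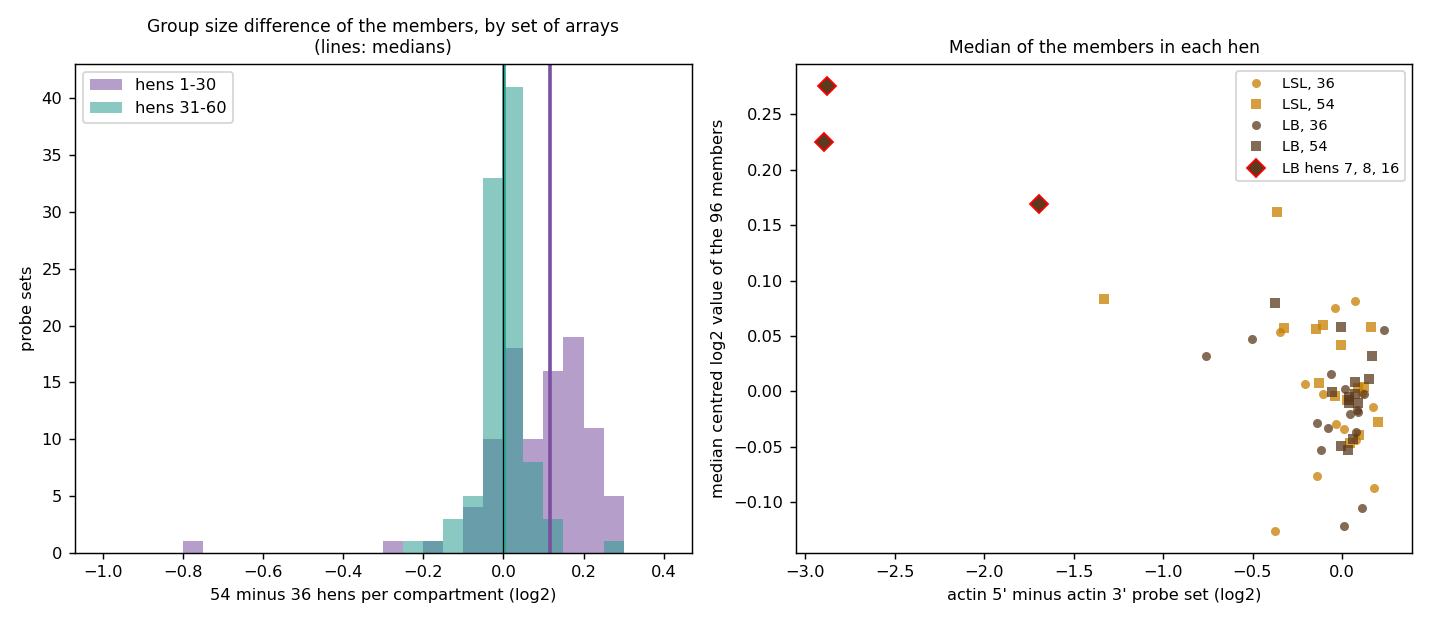
Left, number of member probe sets (y axis) by group size difference (x axis, 54 minus 36 hens per compartment, log2) in hens 1-30 and hens 31-60, with medians of 0.12 and 0.00 as lines. Right, median centred log2 value of the 96 members in each hen (y axis) against the actin 5' minus 3' difference of its array (x axis, log2), where LB hens 7, 8 and 16 lie at the upper left.

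MRPS16 was the only member called for group size within a line. At Gga.3282.5.S1_at, LSL layers of hens 1 to 30 ran from -0.58 over -0.38 to -0.28 in compartments of 36 hens and from -0.36 over -0.01 to 0.19 in compartments of 54 hens. Those of hens 31 to 60 ran from -0.76 over -0.54 to -0.40 and from -0.40 over 0.00 to 0.12. In the first set 4 of 7 LSL layers from compartments of 36 lay below all 8 from compartments of 54, and in the second set 5 of 6 lay below all 7. All LSL layers from compartments of 36 lay below every LB hen of their set, whereas of those from compartments of 54 only 3 of 8 and 1 of 7 did.

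The LSL difference of MRPS16 was 0.40 (SE 0.07, limma adjusted p = 0.0314), beside 0.00519% of all probe sets called within LSL. It was 0.34 in hens 1 to 30 and 0.47 in hens 31 to 60, neither called alone, and 0.37 in the right side alone, also not called (adjusted p = 0.152). Hens 7, 8 and 16 are LB layers, and without them it was 0.40 (adjusted p = 0.0156). In LB layers, values in hens 1 to 30 ran from -0.09 over 0.08 to 0.71 in compartments of 36 and from -0.13 over 0.10 to 0.62 in compartments of 54, and in hens 31 to 60 from -0.23 over 0.06 to 0.21 and from -0.07 over 0.23 to 0.47. Of the LB layers from compartments of 54, 0 of 7 in the first set and 5 of 10 in the second lay above all from compartments of 36. The LB difference was 0.10 (SE 0.07, adjusted p = 0.575).

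The group size effect on MRPS16 was not shown to differ between the lines, since the interaction of 0.30 (SE 0.10) had an adjusted p of 0.248 and an unadjusted p of 0.00394. Over both lines the difference was 0.24 (SE 0.05, limma adjusted p = 0.101). It was called without hens 7, 8 and 16 (0.28, adjusted p = 0.0348), beside 0.0234% of all probe sets. In hens 31 to 60 alone it was also called (0.29, adjusted p = 0.0490), beside 0.33% of all probe sets. The second probe set, Gga.3282.2.S1_a_at, had 0.20 (SE 0.04, adjusted p = 0.110) over both lines, and the other 2 had 0.02 and 0.04. The leading probe set of MRPS6 had the lowest group size difference of the members, -0.46 (SE 0.21, adjusted p = 0.440), with -0.84 in LB and -0.03 in LSL layers. Without hens 7, 8 and 16 it was -0.39 over both lines and -0.75 in LB layers.

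**Figure D4:**
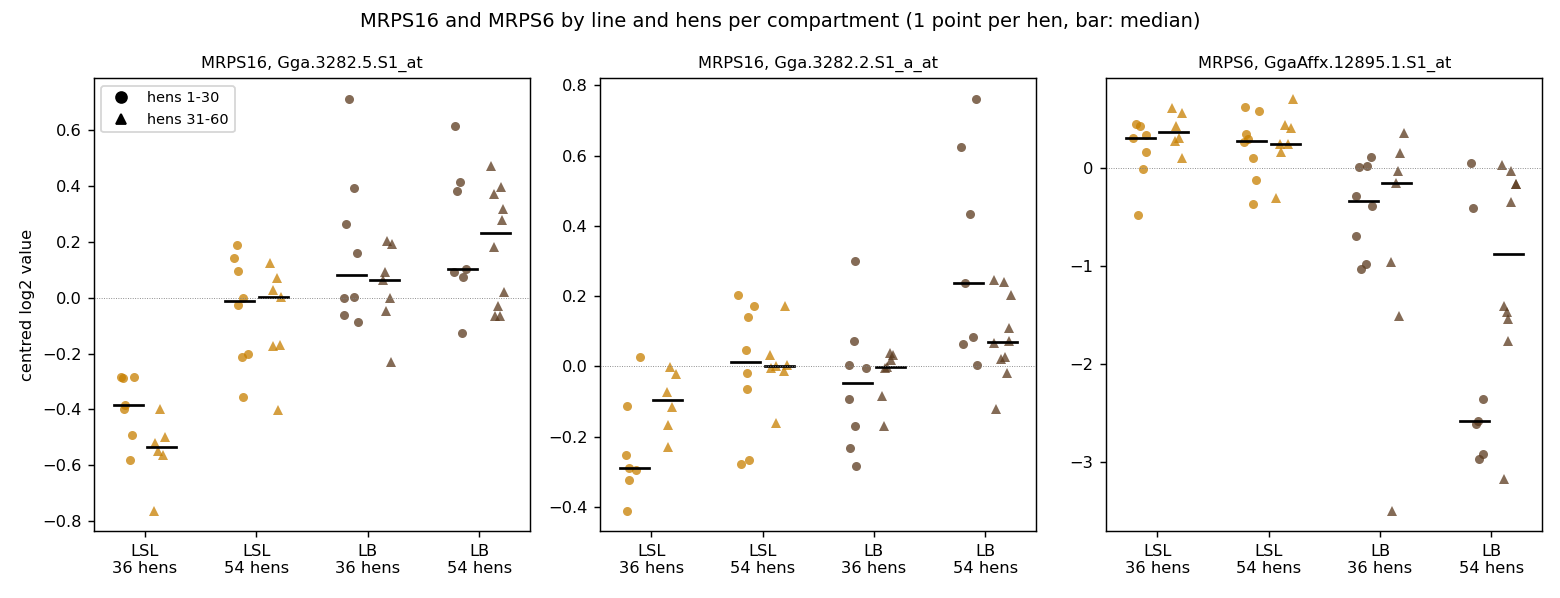
Centred log2 value (y axis) of each hen at 2 probe sets of MRPS16 and the leading probe set of MRPS6, by line and hens per compartment, with circles for hens 1-30, triangles for hens 31-60 and medians as bars. LSL layers from compartments of 36 hens are lowest at Gga.3282.5.S1_at, with medians of -0.38 and -0.54.

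Other genes of mitochondrial translation were counted in the same fit, beside the 18.3% of all probe sets called between the lines. Of the ribosomal proteins without an MRP symbol (6 probe sets of 4 genes), DAP3, a GTP-binding protein of the small subunit, was called at 1 probe set (-0.22) and PTCD3, also of the small subunit, at 1 (0.08). Of the translation factors (23 probe sets of 9 genes), 7 were higher and 2 lower in LSL. They were led by the release factor MTRF1L (0.58), by SLIRP, which stabilises mitochondrial mRNAs (0.33), and by the initiation factors MTIF3 (-0.23) and MTIF2 (0.22). Further probe sets of SLIRP (0.25) and MTIF2 (0.13) were called, and others of SLIRP (0.21) and MTIF2 (-0.07) were not.

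Of the genes of ribosome assembly and of mitochondrial rRNA (43 probe sets of 21 genes), 9 were higher and 2 lower in LSL. The largest were the rRNA methyltransferases TFB1M (0.36) and NSUN4 (0.30), the assembly factor MTERF3 (-0.24 at 1 probe set and 0.13 at another) and the rRNA chaperone ERAL1 (0.22). TFB1M was also called at 0.26, while its other probe sets (-0.04 to 0.10) and the other of ERAL1 (0.07) were not called. RBFA was called in both directions (0.10 and -0.22). Of the tRNA synthetases and amidotransferase subunits (32 probe sets of 17 genes), 7 were higher and 1 lower. Among them were GATC (0.31), FARS2 (0.25), GATB (0.16) and GARS (0.12, and 0.11 at another probe set). Other probe sets of GATC (0.04 and -0.03), FARS2 (-0.01) and GARS (0.08) were not called. PARS2 was called in both directions (-0.12 and 0.12). None of the 4 lists had a probe set called for group size, beside 0.0104% of all probe sets. An unadjusted p under 0.05 was reached by 7 of the 43 probe sets of the assembly list and 0 of the other lists, beside 10.3% of all probe sets.

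Markers of cells that the tissue could hold were compared between the lines, beside the 18.3% of all probe sets called. Calls were made at 2 of 19 probe sets for neurons, 1 of 8 for oligodendrocytes and 1 of 7 for astrocytes. There were 0 of 16 for microglia and macrophages, 0 of 8 for erythrocytes, 4 of 14 for endothelium and 1 of 17 for meninges. Of the endothelial calls, 2 were higher (CLDN5) and 2 lower (PECAM1) in LSL. For group size 0 were called, beside 0.0104% of all probe sets. The difference was negative at all 7 astrocyte probe sets (median -0.10) and 7 of 8 erythrocyte probe sets, from 3 genes (median -0.08). The median of the members was 0.04, and 47.2% of all probe sets were positive. In hens 1 to 30 alone, 6 of 7 astrocyte (median -0.07) and 3 of 8 erythrocyte probe sets (median 0.03) were negative. In hens 31 to 60 alone, 6 of 7 (median -0.04) and 8 of 8 (median -0.17) were negative. Without hens 7, 8 and 16 it was negative at 5 of 7 astrocyte probe sets (median -0.03) and at 8 of 8 erythrocyte probe sets (median -0.12). Their part in the differences of the members was not tested. Of the genes next to a called member gene in the RefSeq annotation, 10 of 25 on the array had a called probe set (40%). Of those next to the other member genes it was 22 of 82 (26.8%), beside 32.4% of all genes on the array. This is a description without a test.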

How the data were processed

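The authors scanned 1 array per hen and made the deposited log2 values with RMA in GeneSpring GX (background correction, quantile normalization, centring on the median). Hens 1 to 30 and hens 31 to 60 each gave every probe set a median within 1e-06 of 0. Centred values allow no filter on low expression, and all 38535 probe sets entered the tests. Line, group size and side came from the labels. The fits were made with lmFit and eBayes of limma 3.58.1 and with data.table (1.17.8) under R 4.3.3. The set of arrays was a block, with the line as a covariate for group size, and 4 group means sharing 1 spread for contrasts within a line or group size. Benjamini-Hochberg adjustment ran across the whole array. The scripts were tested on simulated data. Symbols came from the array's probe annotation, and all 96 members matched RefSeq (GRCg7b), which was used for names and neighbours only.

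Full values are given for the 12 called members with the largest line differences, all other probe sets of their genes, and members called for group size, for the interaction or within a line. MRPS6 was included by name. Other members are given by counts, and the other called members were named after their values were seen. Members, lists and alternatives were chosen with earlier results of these data known, and the actin covariate and the unadjusted counts were added after seeing the data. Alternatives were no block, each set alone, the right side alone, side or group size as covariates, no hens 7, 8 and 16, quantile normalization, subtraction of array medians, robust eBayes, array weights, and the t-test of the methods.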

Additional observations from a re-analysis of the deposited data

How the results depend on the processing

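Compared with 20 members called between the lines, hens 1 to 30 alone gave 11, all of them among the 20. The share of all probe sets called went from 18.3% to 7.77%. In compartments of 36 hens the count of 11 became 4 in hens 1 to 30 alone, while the share of all probe sets went from 9.07% to 3.01%. The 1 call for group size within LSL, of MRPS16, became 0 in either set of arrays alone and in the right side alone. Of all probe sets 0.00519% were called within LSL in the main fit. The share was 0% in hens 1 to 30, 0.00519% in hens 31 to 60 and 0% in the right side alone. The 0 calls for group size over both lines became 1, again MRPS16, in hens 31 to 60 alone, without hens 7, 8 and 16, and with array weights. Of all probe sets 0.33%, 0.0234% and 0.0234% were called in these settings, and 0.0104% in the main fit. The 17 genes with a called probe set became 10 where all probe sets of a gene had to be called in 1 direction. These 10 genes have 1 probe set each, so their single call met this rule by itself. The count was 11 where each gene was counted by its probe set of the smallest residual SD. No share of all genes on the array was taken for the counts of 10 and 11. Some of these settings used fewer hens or probe sets, and the cause of the changes was not tested. Of the named differences, 4 turned their sign, none of them called: MRPL53 at Gga.11961.2.S1_a_at (-0.0454 in hens 1 to 30), MRPS16 at Gga.3282.3.S1_at (0.0266 in hens 31 to 60) and MRPS6 at Gga.5347.1.S1_s_at (0.0903 in hens 31 to 60, 0.00535 with array weights). Of the other named values under the alternatives, 237 kept direction and side of the threshold, 18 lost and 12 gained a call. No paired analysis was possible because a hen number belongs to 1 bird and no number is found in several groups.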
